A study of Mus musculus with 16 samples.

Results

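The genes described here are 9 genes of mouse chromosome 9 that lie within 20 Mb of Foxl2, on the same chromosome as the gene that the study removed. They are Clstn2, Nmnat3, Dipk2a, Mapkapk3, Ibtk, Tpbg, Plscr2, Sema3b and Ctsh. They were chosen because they had changed in ovaries without Foxl2, and they are the 9 genes that passed an adjusted p of 0.05 between Runx1/Foxl2 double knockout (DKO) and control ovaries among the 321 genes other than Foxl2 measured within that distance, of 18193 genes measured in all. Their differences after loss of Foxl2 are therefore given as a description, with no test. The array reads these 9 genes with 21 probe sets, each a set of short probes for one transcript, and every one of the 21 is described.

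The data are Affymetrix whole-genome arrays of 16 newborn mouse ovaries (postnatal day 0), 1 ovary per array and 4 per genotype. The mothers were Runx1f/f and Foxl2+/-, and the fathers were Runx1+/- and Foxl2+/- and carried Sf1-cre+/Tg. Control ovaries were Runx1+/f, Foxl2+/+ and Sf1-cre+/+, and Runx1 KO ovaries were Runx1-/f, Foxl2+/+ and Sf1-cre+/Tg. Foxl2 KO ovaries were Runx1+/f, Foxl2-/- and Sf1-cre+/+, and DKO ovaries were Runx1-/f, Foxl2-/- and Sf1-Cre+/Tg. All 16 ovaries therefore carried a floxed Runx1 allele. Sf1-Cre deletes that allele in the SF1-positive somatic cells of the gonad, whereas the Foxl2 allele is null in every cell of the animal. Both genotypes without Runx1 also carried the Cre transgene, and both genotypes without Foxl2 also carried the stretch of chromosome 9 that is inherited with the null allele, from a line of mixed strain background, so loss of Foxl2 and the DNA linked to it cannot be told apart in these groups, nor can loss of Runx1 and the transgene.

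FOXL2 is a forkhead transcription factor of granulosa cells that helps to keep the identity of the ovary's somatic cells, and Sertoli cell genes become active when it is lost. A targeted allele is passed on together with neighbouring DNA from the strain in which it was made, and that DNA can differ in sequence from the other parental strain. A probe on an array reports both how much of an RNA is present and how well that RNA matches the probe, which is why probe sets of the same gene are compared here.

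Values are the deposited intensities, scaled to the same trimmed mean on each array, and differences are on a log2(intensity + 16) scale with their standard error (SE) from a limma fit over all 16 ovaries. The knocked-out gene itself read 2641 to 4241 in the 8 ovaries with Foxl2 and 484 to 889.7 in the 8 Foxl2-null ovaries on its brighter probe set, and 103 to 191 against 3.15 to 18.2 on its dimmer one. Runx1 read 2142 to 2359 in control, 932 to 2127 in Runx1 KO, 2356 to 3054 in Foxl2 KO and 2111 to 2370.3 in DKO ovaries. On this and another 2 of its 6 probe sets, Runx1 KO ovaries differed from control by -0.64, -0.66 and -0.76, and DKO ovaries by -0.01, -0.15 and 0.03. On these probe sets the Runx1 signal of DKO ovaries was therefore near the control level, unlike that of Runx1 KO ovaries. The remaining, dimmer Runx1 probe sets differed from control by 0.08, 0.32 and -0.25 in Runx1 KO ovaries. In DKO ovaries they differed from control by 0.67, 0.58 and 0.37. Both genotypes carry the same label for this gene. Whether the probe sets lie in the deleted part of Runx1 was not examined, so the signal cannot decide the genotype. DKO names these ovaries as they were labelled. Markers of the tissue were present: 8 oocyte genes averaged between 10.39 and 10.77 and 8 pre-granulosa genes between 9.37 and 10.33 on the log2 level scale across the 4 genotypes.

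Loss of Foxl2 moved markers of the somatic cells along with the 9 genes. The mean of 8 pre-granulosa markers, as a log2 deviation from its average over the 16 ovaries, lay between 0.18 and 0.73 in control, 0.10 and 0.39 in Runx1 KO, -0.46 and 0.06 in Foxl2 KO and -0.63 and -0.35 in DKO ovaries. That of 8 Sertoli markers lay between -0.84 and -0.47, -0.52 and -0.17, 0.07 and 0.74, and 0.39 and 0.65 in the same order. The pre-granulosa list includes Foxl2 itself, so removal of that gene lowers the mean of the list. Of this list 3 genes fell in Foxl2 KO and 5 in DKO ovaries, Foxl2 among them in both, beside 0.704% and 0.857% of all genes. Of the Sertoli list 5 and 4 rose, beside 0.813% and 1.28% of all genes. No oocyte, endothelial or macrophage marker passed the threshold in either comparison. In whole ovaries fewer cells of a type and less RNA per cell cannot be told apart, and the part of these cell type shifts in the values of the 9 genes was not tested.

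Of the members, 6 were lower and 3 were higher in DKO than in control ovaries, and decreases lay on both sides of Foxl2. Ordered along the chromosome, Ibtk and Tpbg lay 13.3 and 13.1 Mb and Ctsh 8.9 Mb towards lower coordinates. On the same side Plscr2 lay 6.68 Mb, Dipk2a 4.44 Mb, Clstn2 1.51 Mb and Nmnat3 0.668 Mb away. Mapkapk3 and Sema3b lay 8.3 and 8.64 Mb towards higher coordinates. Distances are between the lower ends of the annotated genes in GRCm38.p6. For genes on the minus strand, among them Clstn2, Dipk2a, Ibtk and Mapkapk3, the lower end is not the transcription start. By the rule all 9 passed the threshold between DKO and control, where 2.13% of all genes did (1.28% higher, 0.857% lower). Between Foxl2 KO and control 6 of the 9 passed it, 5 lower and 1 higher, against 1.52% of all genes (0.813% higher, 0.704% lower). Between DKO and Runx1 KO, which by the labels differ in Foxl2 and not in Runx1 or Cre, although the Runx1 signal was 0.64 ± 0.19 higher in the DKO ovaries, 5 of the 9 passed it, all lower, against 0.989% of all genes (0.423% higher, 0.566% lower). The median difference of the 9 genes was -1.10 in Foxl2 KO and -1.31 in DKO against control, beside 0.05 and 0.04 over all genes.

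**Figure D1:**
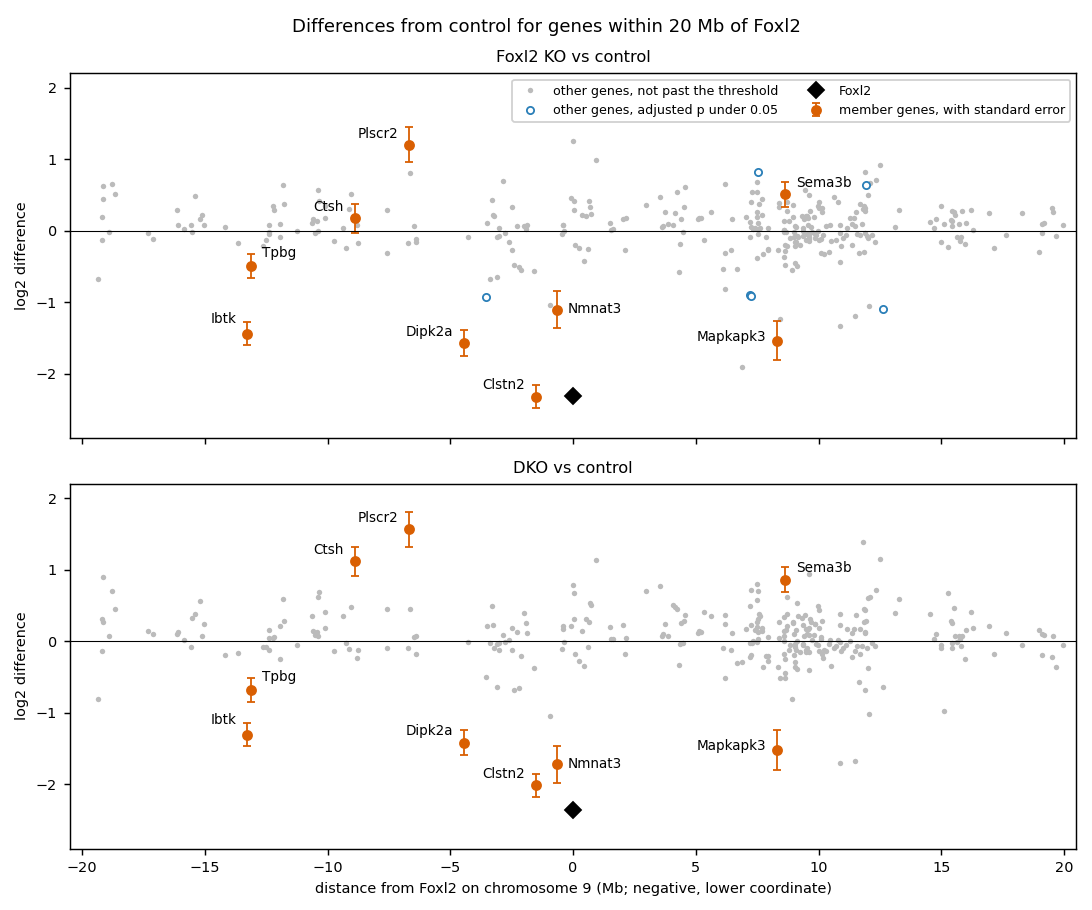
Log2 difference from control (vertical axis) against the distance from Foxl2 in Mb (horizontal axis) for Foxl2 KO ovaries above and DKO ovaries below; each point is 1 gene, and bars are the SE of the members. The members with the 5 deepest decreases in Foxl2 KO, from -1.10 to -2.32, stand well below most of the other genes around them, which centre near 0.

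Of the 321 genes within 20 Mb of Foxl2, 3.74% passed the threshold in Foxl2 KO against control, beside 1.51% of all genes other than Foxl2. The shares were 2.8% beside 2.13% in DKO against control and 1.87% beside 0.984% in DKO against Runx1 KO. The rule used comparisons of Foxl2 loss, and nothing further is read from these shares. In Foxl2 KO against control 4 of 67 genes within 5 Mb passed it (5.97%), 5 of 121 between 5 and 10 Mb (4.13%), 3 of 133 between 10 and 20 Mb (2.26%) and 11 of 680 farther along the chromosome (1.62%). In DKO against control the shares in the same bands were 4.48%, 3.31%, 1.5% and 2.5%, so that between 10 and 20 Mb was below the share over all genes. The median difference over all 321 genes was 0.05 in Foxl2 KO and 0.07 in DKO, close to that over all genes. The median size of the difference, without its sign, was 0.24 within 5 Mb and 0.19 within 20 Mb in Foxl2 KO, beside 0.17 over all genes. The farthest member was Ibtk at 13.3 Mb, and the nearest gene past the threshold beyond 20 Mb was Xcr1, a chemokine receptor, at 24.9 Mb with a difference of 0.88 in Foxl2 KO. The smallest difference of a member in DKO was that of Tpbg at -0.69, and the first gene to miss the threshold was Myo6, an unconventional myosin, at 0.71.

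The 3 members closest to Foxl2 were all lower in both Foxl2-null genotypes, on every probe set. Clstn2 encodes calsyntenin-2, a cadherin-like membrane protein best known from synapses. Its brighter probe set read 1297, 1092, 1548 and 899.6 in the 4 control ovaries and 749.9, 709.9, 734 and 752 in the Runx1 KO ovaries. It read 192, 265, 243 and 204 in Foxl2 KO and 235, 283, 287 and 326 in DKO ovaries. The highest Foxl2-null ovary was thus below the lowest ovary with Foxl2, and the 4 Runx1 KO ovaries were all below the 4 controls. The differences from control were -2.32 ± 0.16 in Foxl2 KO, -2.02 ± 0.16 in DKO and -0.68 ± 0.16 in Runx1 KO. The second probe set gave the same order at a lower level, from 149 to 327 with Foxl2 to 45.7 to 111 without it, and differences of -1.71 ± 0.20 and -1.49 ± 0.20.

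Nmnat3, which makes NAD from nicotinamide mononucleotide and is assigned to mitochondria, was the nearest member to Foxl2. Its brighter probe set read 587, 512, 466 and 1174 in control and 513, 602, 548 and 405 in Runx1 KO ovaries. It read 257, 368, 216 and 336 in Foxl2 KO and 229.7, 163, 206 and 141 in DKO ovaries. The Foxl2-null and Foxl2 wild-type ovaries did not overlap, and the fourth control stood apart from the other 3. That ovary also had the highest level of the 4 measured erythroid markers, 2.75 above their average on the log2 scale against at most 0.26 in the other 15, and the part of blood cells in this Nmnat3 value was not tested. With it the differences from control were -1.10 ± 0.26 in Foxl2 KO and -1.72 ± 0.26 in DKO, and without it -0.82 ± 0.20 and -1.44 ± 0.20. The dimmer probe set did not single out that ovary: it read 237, 140.4, 208 and 192 in control, and 46.0 to 102 in the 8 Foxl2-null against 140.4 to 237 in the 8 wild-type ovaries.

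Dipk2a encodes a secreted protein of the divergent protein kinase family. Its brightest probe set read 2048, 2924, 2730.1 and 2755 in control and 1632, 1422, 1607 and 2494 in Runx1 KO ovaries. It read 844, 935, 907 and 761 in Foxl2 KO and 1217, 903, 984 and 783 in DKO ovaries. All 8 Foxl2-null ovaries lay below all 8 with Foxl2, and 3 of the 4 Runx1 KO ovaries lay between the groups while the fourth was at the control level. The fourth ovary also had the highest Runx1 signal of its genotype, where Runx1 read 1701, 1221, 932 and 2127, and the part of this in its Dipk2a value was not tested. The 3 probe sets gave differences of -1.57, -1.70 and -1.84 in Foxl2 KO and -1.42, -1.45 and -1.40 in DKO, with SE between 0.19 and 0.26. Each of the 3 also separated the 8 null from the 8 wild-type ovaries.

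**Figure D2:**
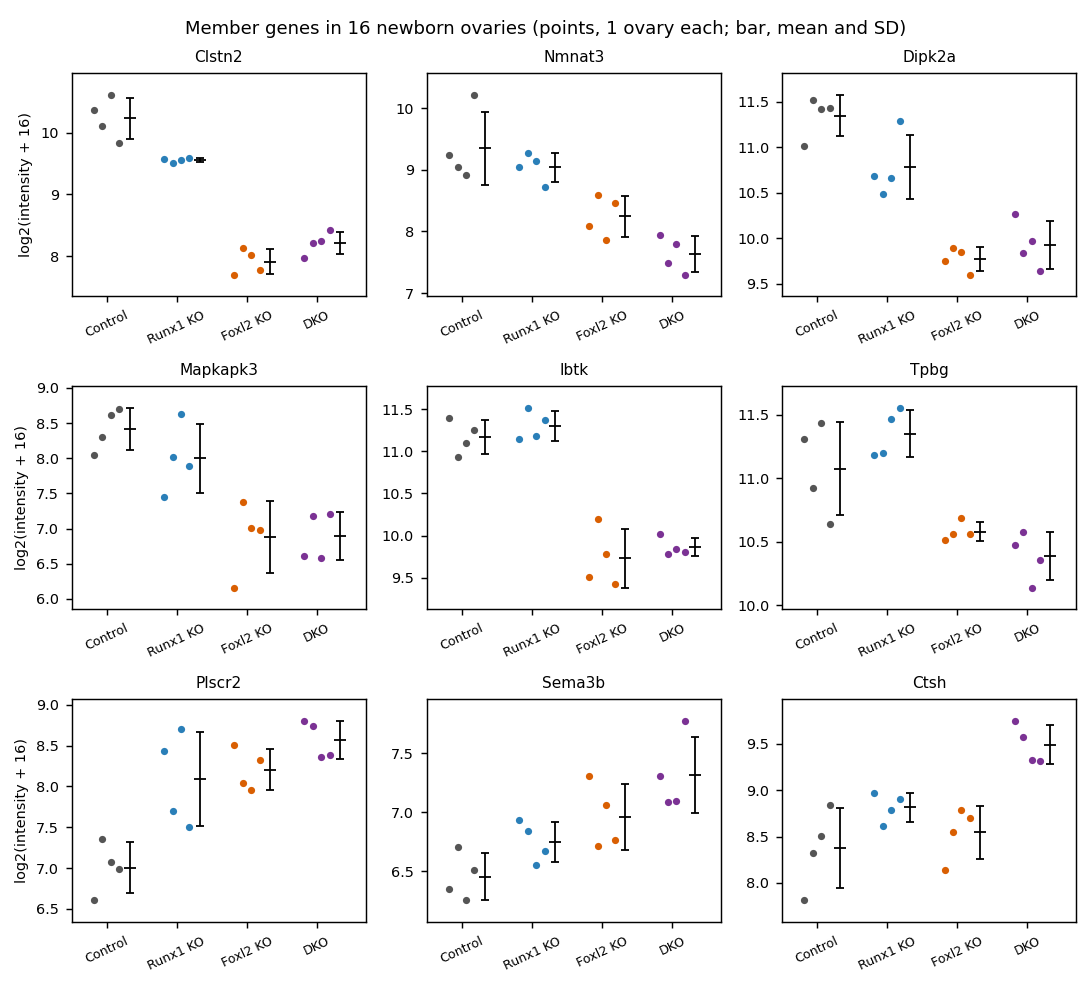
Log2(intensity + 16) of the 9 genes in each of the 16 ovaries (points), grouped by genotype, with the mean and SD of each group beside the points; vertical axes differ between panels. Clstn2, Nmnat3, Dipk2a, Mapkapk3 and Ibtk show no overlap between the 8 Foxl2-null and the 8 Foxl2 wild-type ovaries, and Ctsh is high in the 4 DKO ovaries alone.

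Mapkapk3 and Ibtk, which lie farther away on opposite sides, were lower to a similar degree. Mapkapk3 is a kinase activated by p38 MAP kinase. It read 249, 299, 378 and 401 in control and 159, 244, 379 and 221 in Runx1 KO ovaries, against 55.6, 151, 112 and 109.8 in Foxl2 KO and 81.9, 129, 80.0 and 132 in DKO ovaries. The Foxl2-null ovaries were below all others, although the highest of them came close to the lowest Runx1 KO ovary. The differences from control were -1.54 ± 0.28 in Foxl2 KO and -1.52 ± 0.28 in DKO. Its second, dimmer probe set overlapped between all pairs of genotypes, with 36.5 to 204 in ovaries with Foxl2 and 14.4 to 68.4 without, and its differences of -0.96 ± 0.38 and -0.91 ± 0.38 had the larger SE.

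The probe sets of Ibtk disagreed. Ibtk encodes an inhibitor of Bruton's tyrosine kinase that also serves as an adaptor of a cullin 3 ubiquitin ligase. Probe set 1454905_at read 2682, 1944, 2168 and 2431 in control and 2240.4, 2914, 2302 and 2632 in Runx1 KO ovaries. It read 713, 1158, 868 and 674 in Foxl2 KO and 1025, 868, 901 and 876 in DKO ovaries. The lowest ovary with Foxl2 was above the highest without it, and the differences from control were -1.44 ± 0.16 and -1.31 ± 0.16, or 2.71-fold and 2.48-fold lower. Probe set 1434282_at, which is assigned to the same gene, read 778, 754, 729.7 and 769 in control and 788, 662, 885 and 717 in Runx1 KO ovaries. It read 703, 771, 719.8 and 700.4 in Foxl2 KO and 659, 719, 821 and 683 in DKO ovaries. All 4 genotypes overlapped on it, and its differences were -0.07 ± 0.12 in Foxl2 KO and -0.08 ± 0.12 in DKO, with 95% intervals of -0.32 to 0.19 and -0.33 to 0.18. The third probe set, 1439285_at, averaged 5.37 on the log2 level scale, which is near the median of 5.34 over 9 Y-linked genes that XX ovaries lack (4.51 for Uty to 8.30 for Sry), and its values of 6.50 to 63.8 were not read further. Probe sequences and strain variants of the region were not analysed here, so a change of Ibtk RNA and a change in how that RNA meets the probes of 1454905_at cannot be told apart from these arrays.

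**Figure D3:**
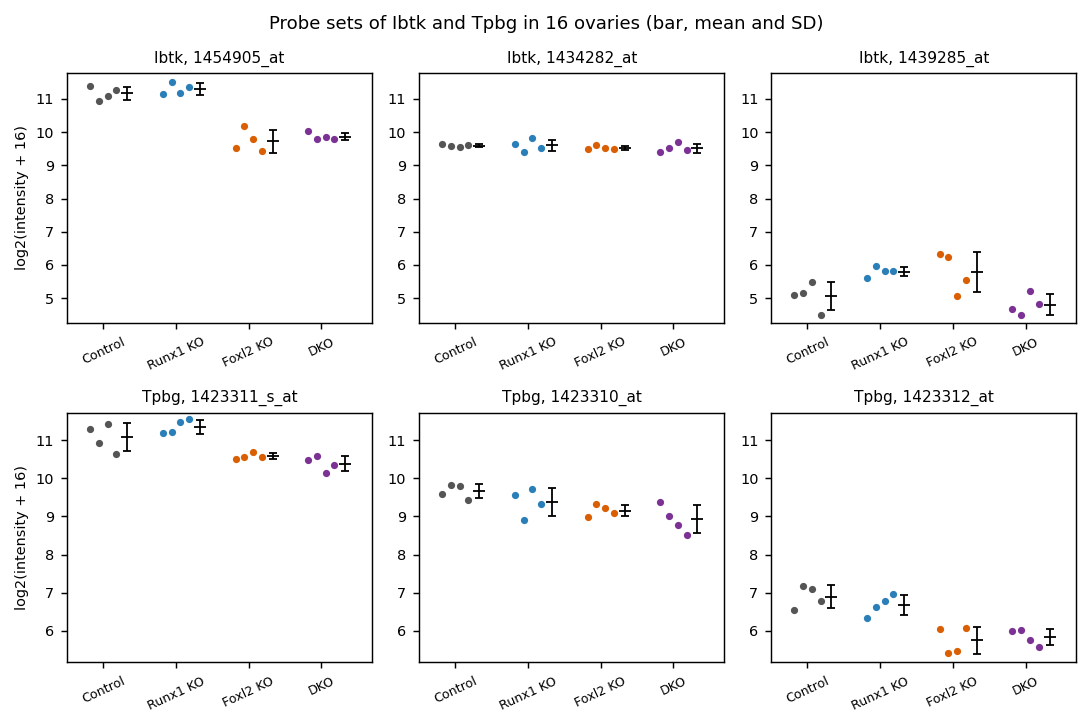
Log2(intensity + 16) of the 3 probe sets of Ibtk (top) and of Tpbg (bottom) in each of the 16 ovaries (points), with mean and SD per genotype; axes are shared within each row. For Ibtk the left panel drops in the 8 Foxl2-null ovaries and the middle panel is level in all 16. The 3 panels of Tpbg are lower than control in both Foxl2-null genotypes. In Runx1 KO the left panel of Tpbg is above control, by 0.28, and the middle and right panels are below it, by -0.29 and -0.22.

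Tpbg, the trophoblast glycoprotein of the cell surface that restrains WNT signalling, lies beside Ibtk and was the member with the smallest decrease. Its brightest probe set read 2515, 1927, 2752 and 1576 in control and 2311, 2340.1, 2813 and 2994 in Runx1 KO ovaries. It read 1445, 1492, 1632 and 1494 in Foxl2 KO and 1403, 1510.0, 1112 and 1297 in DKO ovaries. The lowest control ovary lay within the Foxl2 KO values, and the difference from control was -0.50 ± 0.17 in Foxl2 KO and -0.69 ± 0.17 in DKO. Against Runx1 KO, the genotype with the highest mean on this probe set, DKO differed by -0.97 ± 0.17 with no overlap. The middle probe set gave -0.51 ± 0.20 and -0.74 ± 0.20 from control, and the dimmest gave -1.14 ± 0.20 and -1.06 ± 0.20. The dimmest read 26.8 to 51.3 in the 8 Foxl2-null against 65.0 to 128 in the 8 wild-type ovaries. Its mean log2 level of 6.29 lay within the range of the Y-linked genes named above. All 3 probe sets were therefore lower than control in both Foxl2-null genotypes, and only on the dimmest did the 2 sets of 8 ovaries not overlap. On the middle and dimmest probe sets control, not Runx1 KO, had the highest mean. There DKO differed from Runx1 KO by -0.45 ± 0.20, with overlap, and by -0.84 ± 0.20, without overlap.

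**Figure D4:**
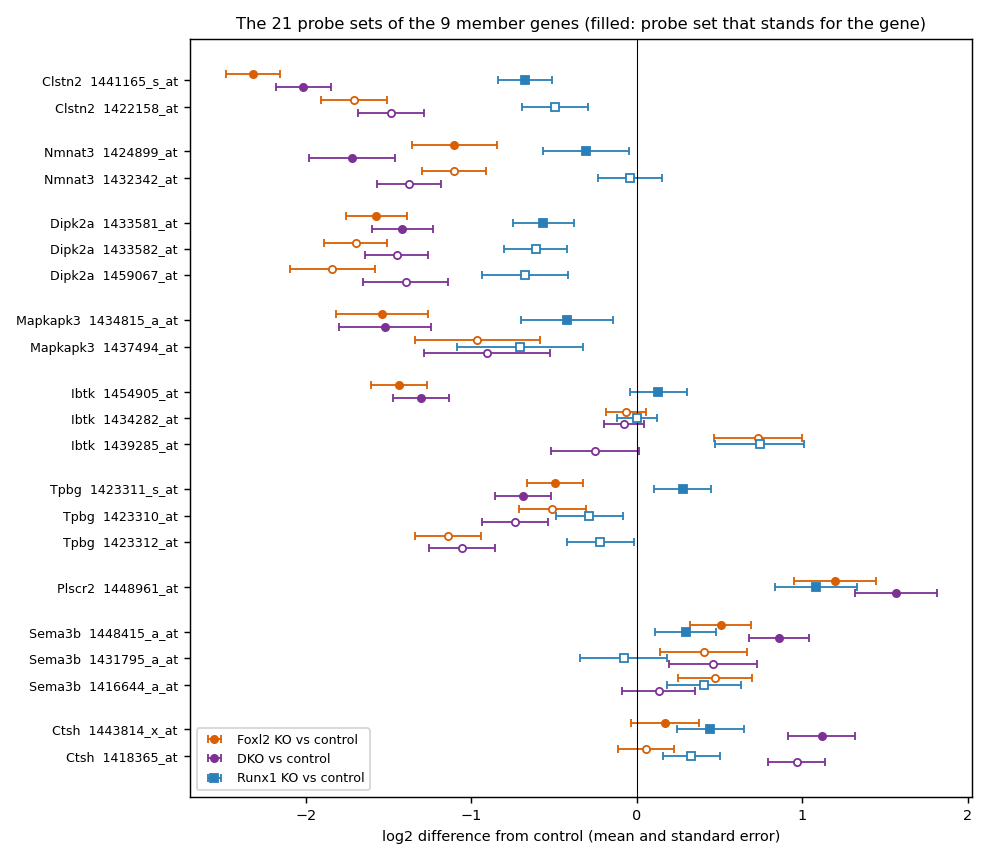
Log2 difference from control with its SE (horizontal axis) for each of the 21 probe sets of the 9 genes, in Foxl2 KO, DKO and Runx1 KO ovaries; filled symbols mark the probe set that stands for the gene. All probe sets of Clstn2, Nmnat3, Dipk2a and Tpbg are below 0 in both Foxl2-null genotypes, and those of Ibtk spread from -1.44 to 0.73 in Foxl2 KO.

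On the probe sets that stand for the genes, the 8 Foxl2-null ovaries lay below the 8 Foxl2 wild-type ovaries without overlap for 5 of the 9 members (Clstn2, Nmnat3, Dipk2a, Mapkapk3 and Ibtk), where 0.533% of all genes did so in that direction. Without overlap in either direction there were the same 5 of the 9 members, beside 0.912% of all genes. The rule chose the members with the same ovaries, so their count is given only as a description. Among all 321 genes within 20 Mb of Foxl2, members included, these 5 alone did not overlap. That is 1.56%, beside 0.907% of all genes other than Foxl2, and the difference was not tested.

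The other 3 members were higher. Plscr2 encodes a phospholipid scramblase, a membrane protein that moves lipids between leaflets, and had a single probe set. It read 81.4, 148, 119 and 111 in control and 329, 192, 402 and 166 in Runx1 KO ovaries. It read 347, 248, 232 and 304 in Foxl2 KO and 432, 411, 312 and 319 in DKO ovaries. All 12 mutant ovaries were above all 4 controls, and the Runx1 KO ovaries spread over the range of the Foxl2 KO ovaries and beyond it on both sides. The differences from control were 1.20 ± 0.25 in Foxl2 KO and 1.57 ± 0.25 in DKO. Plscr1 and Plscr4, which lie next to Plscr2, differed by -0.18 ± 0.15 and 0.06 ± 0.19 in Foxl2 KO and by -0.10 ± 0.15 and 0.05 ± 0.19 in DKO.

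Sema3b, a secreted semaphorin that guides cells and axons through neuropilins and plexins, was the dimmest member. It read 65.7, 88.1, 60.2 and 74.9 in control, 106, 98.4, 77.8 and 85.8 in Runx1 KO, 142, 88.9, 117 and 92.4 in Foxl2 KO and 142, 119, 120.4 and 203 in DKO ovaries. Its mean log2 level of 6.87, like the 7.55 of Mapkapk3 and the 7.97 of Plscr2, lay within the range of the Y-linked genes named above. The DKO ovaries were above all ovaries with Foxl2, the Foxl2 KO ovaries were above the controls by a narrow margin, and the differences from control were 0.51 ± 0.18 and 0.86 ± 0.18. Its other probe sets gave 0.46 ± 0.26 and 0.13 ± 0.22 in DKO and overlapped between all genotypes.

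Ctsh encodes cathepsin H, a lysosomal cysteine protease, and was high in DKO ovaries only. It read 209, 305, 348 and 444 in control, 485, 376, 424 and 464 in Runx1 KO, 266, 358, 426 and 401 in Foxl2 KO and 846, 743, 626 and 621 in DKO ovaries. The 4 DKO ovaries were above the other 12, and the other 3 genotypes overlapped. The difference from control was 1.12 ± 0.20 in DKO and 0.17 ± 0.20 in Foxl2 KO, and the second probe set gave 0.97 ± 0.17 and 0.05 ± 0.17.

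The comparisons that by the labels differ in Runx1 and not in Foxl2 were tested, although they share ovaries with those that chose the genes. The Runx1 signal itself differed by -0.64 ± 0.19 between Runx1 KO and control and by -0.22 ± 0.19 between DKO and Foxl2 KO. On the Runx1 probe sets that gave -0.66 and -0.76 in Runx1 KO, the latter difference was -0.40 ± 0.20 and -0.10 ± 0.20. At -0.40 the 4 DKO ovaries lay below the 4 Foxl2 KO ovaries, and at -0.10 the groups overlapped. None of these differences between DKO and Foxl2 KO passed the threshold, so that comparison rests mainly on the labels. No member passed the threshold between Runx1 KO and control in limma's test with Benjamini-Hochberg adjustment over 18193 genes, where 0.121% of all genes did. At an unadjusted p under 0.05 there were 4 members, beside 7.34% of all genes. The members with the lowest adjusted p were Plscr2, at 1.08 ± 0.25 (limma adjusted p = 0.179), and Clstn2, at -0.68 ± 0.16 (limma adjusted p = 0.213). On the probe sets that stand for these genes, the 4 Runx1 KO ovaries lay outside the range of the 4 controls. The dimmer probe set of Clstn2 gave -0.49 ± 0.20, and on it the 2 groups overlapped. Dipk2a stood at -0.56 ± 0.18 (limma adjusted p = 0.458) and Ctsh at 0.44 ± 0.20 (limma adjusted p = 0.663). The other members lay between -0.42 for Mapkapk3 and 0.29 for Sema3b. Ibtk was at 0.13 ± 0.16 with a 95% interval of -0.22 to 0.48.

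Between DKO and Foxl2 KO ovaries no member passed either, where 0.0605% of all genes did, and at an unadjusted p under 0.05 there were 2 members, beside 5.38% of all genes. Ctsh had the largest difference, at 0.95 ± 0.20 with the 4 DKO ovaries above the 4 Foxl2 KO ovaries on both of its probe sets (limma adjusted p = 0.16). Nmnat3 was at -0.62 ± 0.26 (limma adjusted p = 0.868). The remaining 7 lay between -0.19 for Tpbg and 0.37 for Plscr2. For Mapkapk3 the difference was 0.02 ± 0.28 with a 95% interval of -0.57 to 0.61, and for Ibtk 0.13 ± 0.16 with -0.22 to 0.48. In the test of whether the effects of losing both genes add up on the log2 scale, 0 members passed, where 0.011% of all genes did, and 2 had an unadjusted p under 0.05, beside 5.33% of all genes. The lowest adjusted p was that of Clstn2, for which DKO ovaries were 0.98 ± 0.23 above the sum of the single differences (limma adjusted p = 0.491).

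Another 7 genes within 20 Mb of Foxl2 passed the threshold in a comparison of Foxl2 loss other than DKO against control. In Foxl2 KO these were Chst2, a carbohydrate sulfotransferase, at -0.93 ± 0.21, Wdr82, a subunit of a histone methyltransferase complex, at -0.90 ± 0.18, and the phosphatase gene Ppm1m at -0.92 ± 0.20. They also included Parp3, an ADP-ribosyltransferase of DNA repair, at 0.82 ± 0.18, Als2cl at 0.64 ± 0.14, and Stac, which was as dim as the third probe set of Ibtk, with 24.9 to 58.9 in control and 3.99 to 17.9 in Foxl2 KO ovaries, and for which no size is given. Nudt16, a nucleotide hydrolase, passed between DKO and Runx1 KO at -0.93 ± 0.21. Wdr82 and Ppm1m lie next to each other, 7.22 and 7.24 Mb from Foxl2, and neither was low in DKO ovaries. Wdr82 read 1495, 1751, 1708 and 1359.8 in control, 748, 1297, 754 and 656 in Foxl2 KO and 1772, 1363, 1694 and 1372 in DKO ovaries. Ppm1m read 466, 395, 436 and 399.5 in control, 213, 268, 282 and 136 in Foxl2 KO and 336, 356, 413 and 374 in DKO ovaries. For both the 4 DKO ovaries were above the 4 Foxl2 KO ovaries, at 0.87 ± 0.18 (limma adjusted p = 0.16) and 0.72 ± 0.20 (limma adjusted p = 0.362), and within the control range or close to it.

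Of the 27 genes measured within 2 Mb of Foxl2, Clstn2 and Nmnat3 alone passed the threshold after loss of Foxl2. The 7 other genes whose lower ends fall between those of Clstn2 and Foxl2 did not pass. Their differences in Foxl2 KO ranged from -1.04 to 1.25. Of these Mrps22, of the mitochondrial ribosome, differed by -0.01 ± 0.18 in Foxl2 KO and -0.01 ± 0.18 in DKO, and Copb2, a coatomer subunit, by 0.07 ± 0.17 and 0.18 ± 0.17. The uncharacterised transcript 4921534H16Rik was at -1.04 ± 0.35 and -1.05 ± 0.35. Its lower end lies inside the annotated span of Clstn2, so it is not a separate neighbour of that gene. Prr23a3, next to Foxl2, was at 0.46 ± 0.20 and 0.20 ± 0.20. The antisense gene of Foxl2, Foxl2os, was at 1.25 ± 0.34 in Foxl2 KO and 0.78 ± 0.34 in DKO.

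Relatives of the members were also examined, among them Plscr1 and Plscr4, which lie near Plscr2. Of 57 listed genes of the same families and pathways 56 were measured, with a median difference of -0.07 in Foxl2 KO and 0.00 in DKO. Of these 56 genes 1 passed the threshold in Foxl2 KO, beside 1.52% of all genes. This was the semaphorin Sema3c, at -1.41 ± 0.27, opposite in direction to Sema3b. It was at -0.90 ± 0.27 in DKO, where no relative passed, beside 2.13% of all genes. The family with the median farthest from 0 in Foxl2 KO was that of the divergent kinases related to Dipk2a, with 6 genes measured, at -0.38 in Foxl2 KO and -0.05 in DKO, and none of them passed. The calsyntenins Clstn1 and Clstn3 were at -0.03 ± 0.20 and 0.42 ± 0.32 in Foxl2 KO, and the NAD-forming enzymes Nmnat1 and Nmnat2 at -0.01 ± 0.19 and 0.36 ± 0.16. Mapkapk2, the nearest relative of Mapkapk3, was at -0.07 ± 0.27.

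For each member the gene with the most similar profile over the 16 ovaries was sought, with Foxl2 and the 9 members left out. It lay on another chromosome in all 9 cases. Only 5.51% of all genes lie on chromosome 9, so this says little about position. Likeness was the root mean square difference between log2 profiles centred on their means. The closest to Clstn2 was Ephx2, an epoxide hydrolase on chromosome 14, at 0.21, with differences from control of -2.24 in Foxl2 KO and -1.91 in DKO. The closest to Ctsh was Ppp1r1a, a phosphatase inhibitor on chromosome 15, at 0.19, with 0.11 in Foxl2 KO and 0.89 in DKO. The closest to Ibtk was Cxxc4, an inhibitor of WNT signalling on chromosome 3, at 0.26. These profiles share the same arrays and the same shifts in cell type, and the measure says nothing of shared control.

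The promoters of the members were looked at for the motifs of the transcription factors in play. RefSeq promoter sequence (GRCm38.p6) was at hand for Clstn2, Nmnat3, Dipk2a, Mapkapk3, Ibtk and Tpbg, with 8 start sites in all, and for Plscr2, Sema3b and Ctsh no entry was used. In the 250 bases before each start, the forkhead core TAAACA, the RUNX core TGTGGT and the NR5A core AAGGTCA, searched on both strands, were found in 0 of the 8. Among 32851 promoter windows of that length 12%, 14% and 4.08% hold them, and the absence of these letters from 8 short windows says nothing of binding elsewhere. The windows differed in composition. Those that lie wholly outside the annotated gene are shown, since they belong to members that were lower without Foxl2 and span the range from few to many CG pairs, which are in capitals. The strand and position are for Dipk2a the minus strand, chr9:94538082-94538331, for Mapkapk3 the minus strand, chr9:107289878-107290127, and for Tpbg the plus strand, chr9:85842130-85842379, each written from 5′ to 3′.
Dipk2a: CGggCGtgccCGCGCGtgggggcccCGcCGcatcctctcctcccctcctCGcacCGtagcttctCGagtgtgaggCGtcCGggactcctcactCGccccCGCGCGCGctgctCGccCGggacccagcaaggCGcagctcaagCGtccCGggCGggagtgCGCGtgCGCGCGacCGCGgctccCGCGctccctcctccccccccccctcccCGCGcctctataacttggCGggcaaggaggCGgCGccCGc
Mapkapk3: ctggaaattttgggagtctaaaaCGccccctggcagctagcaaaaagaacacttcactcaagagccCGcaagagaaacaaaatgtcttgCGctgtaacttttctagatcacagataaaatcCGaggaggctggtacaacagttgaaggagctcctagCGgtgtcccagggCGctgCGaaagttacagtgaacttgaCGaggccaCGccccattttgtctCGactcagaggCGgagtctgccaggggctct
Tpbg: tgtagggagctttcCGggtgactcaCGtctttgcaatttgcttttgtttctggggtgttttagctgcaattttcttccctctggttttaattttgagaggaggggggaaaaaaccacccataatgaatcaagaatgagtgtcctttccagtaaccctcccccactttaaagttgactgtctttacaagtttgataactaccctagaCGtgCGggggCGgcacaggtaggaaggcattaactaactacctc
The Dipk2a window holds 38 CG pairs and is 77.6% G and C, and 1.88% of all windows hold as many or more. The Mapkapk3 window holds 11 and the Tpbg window 5, beside a median of 6 over all windows. The 3 genes were all lower in Foxl2-null ovaries, by 1.42 ± 0.18, 1.52 ± 0.28 and 0.69 ± 0.17 in DKO.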

How the data were processed

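Gene expression was measured in 16 newborn ovaries, 4 per genotype, and groups were taken from the sample labels. The authors amplified total RNA, hybridized 1 array per ovary and processed scans with Affymetrix Expression Console 1.2, per the labels. The deposited intensity values are linear, and each array had the same 2% trimmed mean. The authors' statistics used other, RMA-normalized log2 values, which were not used here, and how the deposited values were summarised is not given in the sources used here.

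From the 45101 probe sets, 64 controls were set aside, and 34945 were matched to 1 gene through the platform annotation, with symbols updated to RefSeq. Intensities were transformed as log2(intensity + 16). The probe set with the highest mean stood for each of 18193 genes. Linear models for 4 group means were fitted with limma 3.58.1 in R 4.3.3, with two-sided tests, Benjamini-Hochberg adjustment over all genes within each comparison and a threshold of 0.05. On simulated data for Foxl2 KO against control, 53.6% of 2-fold and 93.2% of 4-fold changes were recovered. Median SE was 0.20 (log2), and array number limits precision. Distances and promoters are from GRCm38.p6.

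The members and gene lists were chosen with earlier results of these data known. Named genes were the members, Foxl2 and Runx1, other genes past the threshold within 20 Mb, the nearest profile of each member, relatives past the threshold, and genes at the limits of the rule. Alternatives were other scalings, offsets, probe set choices, priors, blocks, an analysis of variance and leaving out each ovary. Replicates were single gonads and controls were littermates, but which ovaries shared a litter is not given in the sources used here. Replicate numbers did not pair ovaries: of 24 same-number pairs 1 had correlated deviations above 0.1.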

Additional observations from a re-analysis of the deposited data

Results flagged for a closer look

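Within groups of 4 ovaries, 4 of the 84 groups read by the members' probe sets had 1 ovary whose gap to the nearest other exceeded Dixon's 95% critical value as a share of the group's range, and chance alone gives about 1 in 20. In the Runx1 KO group, the fourth ovary stood above the other 3 on 2 probe sets of Dipk2a, with gaps of 0.855 (1433582_at, 912, 812, 913 and 1507) and 0.882 (1459067_at, 156, 133, 143 and 333). Runx1 itself read 1701, 1221, 932 and 2127 in the same 4 ovaries, highest in the fourth, and Plscr2 read 329, 192, 402 and 166, lowest in the fourth. Without that ovary Dipk2a differed between Runx1 KO and control by -0.73 ± 0.16 (limma adjusted p = 0.179) and Plscr2 by 1.27 ± 0.24 (limma adjusted p = 0.0894), against -0.56 ± 0.18 and 1.08 ± 0.25 with it.

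The other 2 were on dim probe sets. Mapkapk3 on 1437494_at read 55.2, 61.7, 56.7 and 21.1 in DKO ovaries (0.840, the fourth low), and Sema3b on 1416644_a_at read 70.5, 50.8, 51.0 and 50.6 in control ovaries (0.978, the first high). The fourth control ovary of Nmnat3, described above, stayed just under that limit.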

How the results depend on the processing

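No gene within 20 Mb of Foxl2 passed between Runx1 KO and control under any alternative, nor in the interaction. Between DKO and Foxl2 KO the count was 0 under every alternative except without Foxl2 KO replicate 2, where Wdr82 and Col6a5 passed, so that it ranged from 0 to 2 with 1 ovary left out. The count of 9 in DKO against control ranged from 7 to 12 with 1 ovary left out. The count of 12 in Foxl2 KO against control became 5 when only the compared groups were fitted and 7 in the methods' analysis of variance with the same adjustment, and ranged from 5 to 13 with 1 ovary left out. It was 5 to 7 without control replicate 1, 2 or 3 or Foxl2 KO replicate 1, 3 or 4. The count of 6 in DKO against Runx1 KO became 10 with a trended robust prior and ranged from 4 to 10 with 1 ovary left out, with 10 without control replicate 4. The cause was not tested.

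The replicate block gave 9, 8 and 7 genes in Foxl2 KO against control, DKO against control and DKO against Runx1 KO, and 0 in the others. The numbers did not pair ovaries, so this fit is given only as an alternative.

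Members differed in how firmly they passed. Clstn2 passed in all 3 comparisons of Foxl2 loss under every alternative. Nmnat3, Dipk2a, Plscr2, Ctsh and Ibtk did so in DKO against control, under every alternative that included them. So did Dipk2a in Foxl2 KO against control, and Nmnat3 and Ibtk in DKO against Runx1 KO. With 1 ovary left out, Nmnat3 in Foxl2 KO passed in 5 of 16 fits, Tpbg in DKO in 2 of 16, Sema3b in DKO in 13 of 16 Plscr2 in Foxl2 KO in 12 of 16 and Dipk2a in DKO against Runx1 KO in 10 of 16, the last also in 7 of the 11 other alternatives. Averaging all probe sets moved Ibtk in Foxl2 KO from -1.44 to -0.26, where it no longer passed, by averaging in the probe sets at -0.07 and 0.73, and in DKO from -1.31 to -0.54, where it passed. Mapkapk3 no longer passed, at -0.96 in Foxl2 KO and -0.91 in DKO, when probe sets shared between transcripts were left out, and Sema3b was at 0.48 in DKO when its probe sets were averaged. No difference of a member that passed changed sign. Differences that had not passed changed sign for Ctsh in Foxl2 KO (-0.02 without control replicate 1), Ibtk in DKO against Foxl2 KO (-0.29, all probe sets averaged), Tpbg in Runx1 KO (-0.077 averaged, -0.29 without shared probe sets) and Mapkapk3 in DKO against Foxl2 KO (-0.22 to 0.18 with 1 ovary left out).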

Other observations

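Disagreement between probe sets was counted over the array as a description. Among genes within 20 Mb of Foxl2 with 2 or more probe sets of mean log2 level 7 or higher (107 genes), 4 had a probe set past the threshold in Foxl2 KO against control, and 1 of these, Ibtk, had another probe set whose difference was more than 1 log2 unit away. Among 5542 other genes 89 had such a probe set, and 5 of them had another that far away. The shares rest on few genes and were not tested.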
